A study of Homo sapiens with 27 samples.

Results

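The genes described here encode extracellular and lysosomal proteases and the inhibitors that hold them in check. They were taken from the gene counts by name, as every gene whose symbol marks it as a serpin (SERPIN), a Kazal-type inhibitor (SPINK), a matrix metalloproteinase (MMP), an ADAMTS protease, a tissue inhibitor of metalloproteinases (TIMP), a kallikrein (KLK) or a cathepsin (CTS). This gave 122 of the 26485 genes counted: 37 serpins, 10 Kazal-type inhibitors, 22 MMPs, 19 ADAMTS, 4 TIMPs, 15 kallikreins and 15 cathepsins. Their RNA was measured by RNA-seq in T47D, an established human luminal breast cancer line, after lentiviral transfer of a truncated form of the transcription factor GATA3. The 3 mutants lose all or part of the second zinc finger, the DNA-binding domain: Splice del carries a deletion at the X308 splice site, C321fs a frameshift at C321 and A333fs a frameshift at A333. Each was expressed with a Ty1 tag in cells that kept their own GATA3, and the control line received the empty pHAGE vector. All 4 lines were puromycin-selected pools of infected cells, 1 pool per construct, used at fewer than 10 passages. The 3 libraries of a line are therefore not separate infections, and p-values measure the spread between libraries of 1 pool, so that a mutant and its pool cannot be told apart. The labels and the methods name different culture media, and the one used for these libraries was not settled.

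Proteases outside the cell and in the lysosome cleave matrix proteins, receptors and growth factors, and each family is matched by inhibitors that block its active site. Serpins trap serine proteases by an irreversible change of shape, although some members, such as hormone carriers and chaperones, inhibit nothing. TIMPs block MMPs and, in the case of TIMP3, also ADAM and ADAMTS proteases, while Kazal-type inhibitors are small blockers of trypsin-like enzymes. In breast epithelium these families are known for their part in the shaping of the gland and in the invasion of the surrounding matrix.

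The 12 libraries held 27872208 to 36788024 counted fragments, sequenced in 1 lane. All 9 markers of luminal epithelium were expressed, with a summed level of 18220.6 to 21444.0 in counts per 1e6 (CPM) in the control libraries and 12056.4 to 15002.3 in the mutant ones, and ESR1 at means of 218.8 to 258.9 CPM over the 4 lines. PTPRC of leukocytes and FAP of fibroblasts had 0 counts in every library, whereas the leukocyte marker CD14 had means of 0.682 to 2.50 CPM and the fibroblast markers COL1A1 and COL3A1 of 30.1 to 53.4 and 1.63 to 5.13 CPM. GATA3 itself, whose counts include both the cell's own copies and the construct, had means of 1001.5 to 1281.3 CPM, the highest in the control. Since bulk RNA was measured, fewer cells with a transcript and less transcript per cell cannot be told apart. All CPM values below are scaled for library composition by TMM, and differences are log2 fold changes with their standard error (SE) from edgeR's quasi-likelihood test across all genes. A call required a fold change over 1.5 and p below 0.01 after Benjamini-Hochberg adjustment.

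Of the 122 genes, 53 had enough counts to be tested and 69 did not. The untested genes included 17 with 0 counts in all 12 libraries, among them the interstitial collagenase MMP1, the stromelysin MMP3, the macrophage elastase MMP12 and the squamous serpins SERPINB3 and SERPINB4. A further 52 had at least 1 count, up to 13 in a library. The gelatinase MMP2 had 3 counts over all libraries, TIMP4 had 4, and the membrane-bound MMP14 had 58. A count of 0 allows up to 3 counts, which corresponded to 0.0774 to 0.104 CPM in these libraries, and covers counting error only. Of the kallikreins, secreted serine proteases of glandular epithelia, 14 of 15 were among the untested genes and KLK10 was the exception. The filter was passed by ADAMTS10 only because of its C321fs libraries, and by ADAMTS4 only because of its Splice del and C321fs libraries together, the lines in which they were higher. TIMP3, SERPINB5, CTSS and SERPINB9P1 also passed through mutant lines only. None of their control libraries reached the 0.321 CPM that the filter asked for.

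Level was compared between genes per kilobase of exon. The aspartic protease cathepsin D (CTSD) was highest by this measure, with a mean of 1835.5 CPM per kb over the 12 libraries, followed by SERPINA6, the corticosteroid-binding globulin, a hormone carrier, at 844.0 CPM per kb. These 2 genes held 80.1% of the CPM of all 122 genes. The bounds of SERPINA6 in the count data, 1418810 to 94323351, are too far apart for 1 gene. Its exon length of 2984 bases may thus include a further copy, and its level per kb may be too low. Its rank below CTSD is therefore not settled. The same limit applies to SERPINA1, SERPINA10, SERPINF2, MMP11, MMP28 and CTSO. The next were CTSZ at 136.7, the lysosomal carboxypeptidase CTSA at 108.5 and SERPINH1, the collagen chaperone of the endoplasmic reticulum, at 98.3 CPM per kb. The Kazal-type inhibitor SPINK4 stood at 27.4 CPM per kb and TIMP2 at 17.4, the most abundant of their families. MMP17, a glycolipid-anchored membrane protease, led the MMPs with 14.1 CPM per kb, and ADAMTS7 led the ADAMTS with 2.42. The plot of levels per length shows 4 of the 8 tested MMPs and 7 of the 9 tested ADAMTS below 1 CPM per kb, whereas cathepsins reached furthest up the scale. Replicates agreed closely at high level: the median coefficient of variation within a line was 5.13% over the 19 tested genes with a mean of at least 10 CPM, against 25.5% over the 14 below 1 CPM.

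**Figure D1:**
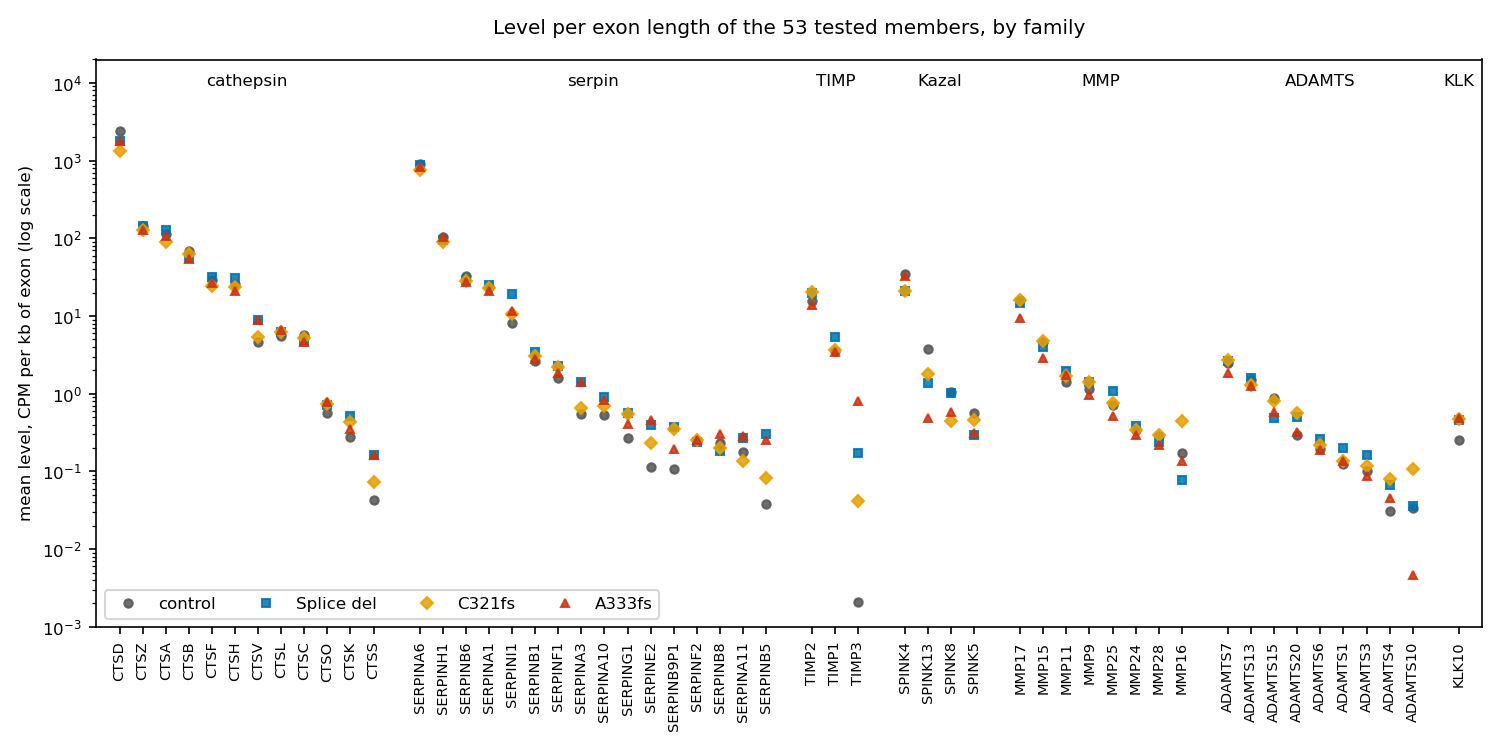
Mean level in CPM per kilobase of exon (log scale) of the 53 tested genes, grouped by family and ordered by level, with 1 symbol per line (3 libraries each). CTSD and SERPINA6 lie far above the rest, and TIMP3 spans the widest range between lines, from 0.00211 in the control to 0.797 CPM per kb in A333fs.

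To show the DNA in front of the genes that moved, the RefSeq window from 250 bases before to 50 bases after the transcription start (GRCh38.p14) was read for 4 of them: TIMP3 and SPINK13, which were called in all 3 mutant lines, and SERPINA3 and SPINK4, which were called against control and whose window holds a full GATA word. Capitals mark the words searched on both strands, which were AGATAA and AGATAG together with TGATAA and TGATAG, forms of the sequence that GATA factors are known to bind. Words may overlap, as they do in SPINK4. The windows lie at chr22:32801455-32801754 (TIMP3, plus strand), chr5:148268544-148268843 (SPINK13, plus strand), chr14:94612141-94612440 (SERPINA3, plus strand) and chr9:33239917-33240216 (SPINK4, plus strand).
TIMP3: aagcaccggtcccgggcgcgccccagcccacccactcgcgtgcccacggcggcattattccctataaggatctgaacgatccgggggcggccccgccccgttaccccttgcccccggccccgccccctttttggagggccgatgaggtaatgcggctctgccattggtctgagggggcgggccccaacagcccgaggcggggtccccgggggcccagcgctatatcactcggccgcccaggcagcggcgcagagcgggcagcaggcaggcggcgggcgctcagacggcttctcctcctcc
SPINK13: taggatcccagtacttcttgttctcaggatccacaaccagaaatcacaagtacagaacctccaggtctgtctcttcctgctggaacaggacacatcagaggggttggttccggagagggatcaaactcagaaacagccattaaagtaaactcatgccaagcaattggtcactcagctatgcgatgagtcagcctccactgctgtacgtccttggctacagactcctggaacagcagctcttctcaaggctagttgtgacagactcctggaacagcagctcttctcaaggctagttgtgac
SERPINA3: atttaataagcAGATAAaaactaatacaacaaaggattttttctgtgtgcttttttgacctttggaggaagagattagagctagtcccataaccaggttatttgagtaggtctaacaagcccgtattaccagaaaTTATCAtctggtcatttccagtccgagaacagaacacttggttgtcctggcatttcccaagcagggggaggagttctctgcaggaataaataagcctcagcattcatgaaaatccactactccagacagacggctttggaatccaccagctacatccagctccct
SPINK4: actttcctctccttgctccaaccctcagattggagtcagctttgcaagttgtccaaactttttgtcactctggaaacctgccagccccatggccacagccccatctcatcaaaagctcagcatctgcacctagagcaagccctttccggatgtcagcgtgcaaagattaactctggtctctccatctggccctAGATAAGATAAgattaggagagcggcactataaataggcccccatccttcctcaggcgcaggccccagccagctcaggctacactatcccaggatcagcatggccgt
TIMP3 and SPINK13 had none of these words in the window. SERPINA3 had 2 matches, 1 on each strand, that began 239 and 115 bases before the start, and SPINK4 had 2 that overlapped in tandem, beginning 57 and 52 bases before it. The shorter core AGAT occurred 8 times in the SPINK4 window, once in that of TIMP3 and not at all in that of SPINK13. Of all 35116 windows of this length, 25.0% held a full GATA word. Among windows of the tested genes of these families it was 8 of 45 (17.8%), and among windows of genes called against control 2 of 16 (12.5%). Some genes have more than 1 window, so these are counts of windows and not of genes. The core AGAT was found in 69.9% of all windows, in 26 of the 45 windows and in 8 of the 16. RefSeq starts can differ from the gene bounds of the count data given below. A window was found for 86 of the 122 genes, and a match describes letters only. The windows also differed in base composition, from 72.7% GC with 31 CpG in TIMP3 to 42.3% GC with 3 CpG in SERPINA3.

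Against control, 12 of the 53 tested genes rose and 5 fell in Splice del, where 6.21% of all 14789 tested genes were called higher and 4.53% lower. In C321fs 5 rose and 3 fell, with 4.63% and 2.26% over all genes. In A333fs 7 rose and 5 fell, with 5.46% and 6.81% over all genes. The median log2 fold change of the 53 genes was -0.08 in A333fs, 0.26 in Splice del and 0.12 in C321fs, and that of all tested genes was 0.01, 0.03 and 0.02 in the same order. A difference of any kind among the 4 lines, tested on 3 coefficients, was found for 33 of the 53 (62.3%), beside 56.2% of all genes. In all, 20 genes were called against control in at least 1 line: TIMP3 and SPINK13 in all 3, 13 in 2 lines and 5 in 1. Among those called in 2 lines, 8 moved the same way in Splice del and A333fs, 4 moved the same way in Splice del and C321fs, and MMP16 moved in opposite directions. The 3 comparisons share the control libraries. Calls in 1, 2 or 3 lines were not counted over all tested genes, so this sharing cannot be called particular to these families. Without the fold change limit, at the same adjusted p, A333fs had 9 genes higher and 13 lower, Splice del 17 and 8, and C321fs 8 and 8. The counts in A333fs depended on scaling, with 9 higher and 3 lower under upper-quartile scaling and 8 higher and 3 lower once the trend with GC content and length was removed. The shares over all genes given above belong to the main call and were not counted for these alternatives. The number lower in A333fs was 3 when control replicate 1 was left out, 2 for control replicate 2 and 3 for A333fs replicate 1, and the number higher in C321fs was 3 without control replicate 2 or C321fs replicate 2.

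**Figure D2:**
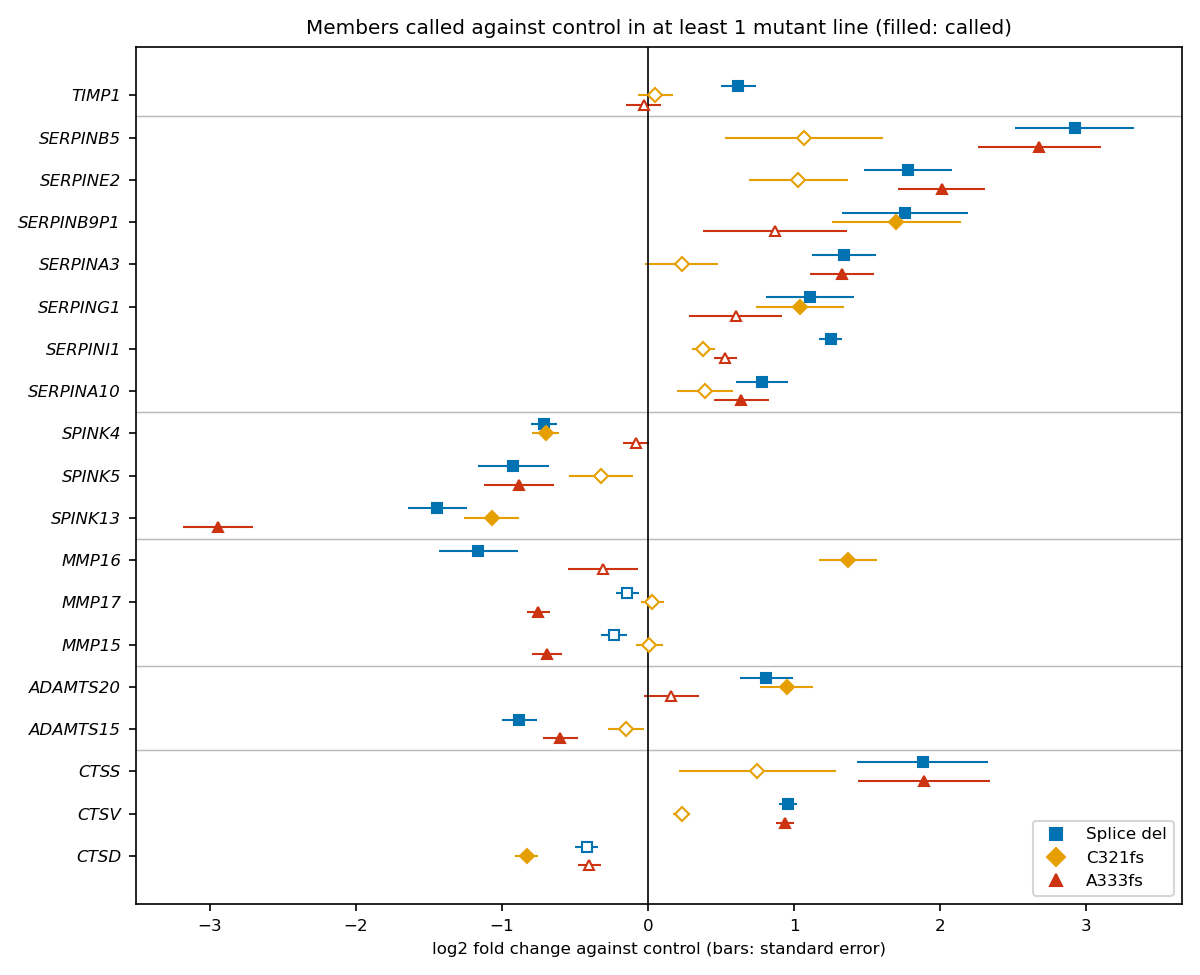
Log2 fold change against control (horizontal axis, bars give the standard error) of the genes called in at least 1 mutant line, without TIMP3, whose control libraries held 1 count in all. Filled symbols passed the call and open ones did not; the serpins shown lie to the right of 0, the Kazal-type inhibitors shown to the left, and MMP16 on both sides.

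TIMP3, a matrix-bound inhibitor of MMP, ADAM and ADAMTS proteases on chromosome 22 (hg38, 32800816 to 32863041), separated the 4 lines completely. The control libraries held 0, 0 and 1 counts. C321fs had 0.183, 0.312 and 0.194 CPM, Splice del 0.877, 0.916 and 1.04 CPM, and A333fs 4.42, 4.12 and 4.58 CPM. Every library of a line thus lay apart from those of the other 3 lines, in the order control, C321fs, Splice del, A333fs. By summed counts the ratio to control was 20.3 (95% counting interval 3.26 to 839.4) in C321fs, 83.9 (14.7 to 3347.6) in Splice del and 391.6 (69.9 to 15504.2) in A333fs, intervals that cover counting error only and rest on the single control count. Between mutant lines TIMP3 was 4.64-fold higher in A333fs than in Splice del (log2 fold change 2.21 ± 0.16 SE, adjusted p = 2.5e-07), 19.0-fold higher in A333fs than in C321fs (4.24 ± 0.22, adjusted p = 1.1e-09) and 4.08-fold higher in Splice del than in C321fs (2.03 ± 0.28, adjusted p = 1.3e-04). It was the only gene of the 53 called in all 6 comparisons, and its calls held in each fit without a library. TIMP3 is widely made by fibroblasts, and of the 8 fibroblast markers COL1A2, PDGFRA, PDGFRB and FAP had at most 2 counts in any library of any line. The summed level of the 8 markers was 53.2 to 65.1 CPM in the control libraries and 30.1 to 33.6 CPM in those of A333fs, and most of it was COL1A1 in every line. THY1 and COL6A3, with at most 10 and 13 counts in a library, had their highest means in A333fs, at 0.209 and 0.277 CPM. Their part in the level of TIMP3 was not tested.

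The other TIMPs moved less. TIMP1, a secreted inhibitor on chromosome X (47582291 to 47586791), had 3.02, 3.72 and 2.95 CPM in the control, 5.13, 4.61 and 5.19 in Splice del, 3.20, 3.23 and 3.63 in C321fs, with 3.36, 3.09 and 3.08 in A333fs. The Splice del libraries lay above those of all other lines, which overlapped. TIMP1 rose in Splice del (0.62 ± 0.12 SE, adjusted p = 3.5e-04) and was lower in A333fs than in Splice del (-0.65 ± 0.12, adjusted p = 9.8e-04). Without control replicate 1 or control replicate 3 the first value fell under the fold change limit, at 0.57 and 0.56. TIMP2, which takes part in activating MMP2 as well as blocking it, had means of 57.5 ± 3.56 CPM in the control, 50.1 ± 2.37 in A333fs, 72.9 ± 1.02 in Splice del and 73.4 ± 2.62 in C321fs (SD, n = 3). A333fs did not overlap with Splice del or C321fs, but no difference of TIMP2 reached 1.5-fold: the largest was -0.55 ± 0.06 in A333fs against C321fs (adjusted p = 4.2e-06).

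**Figure D3:**
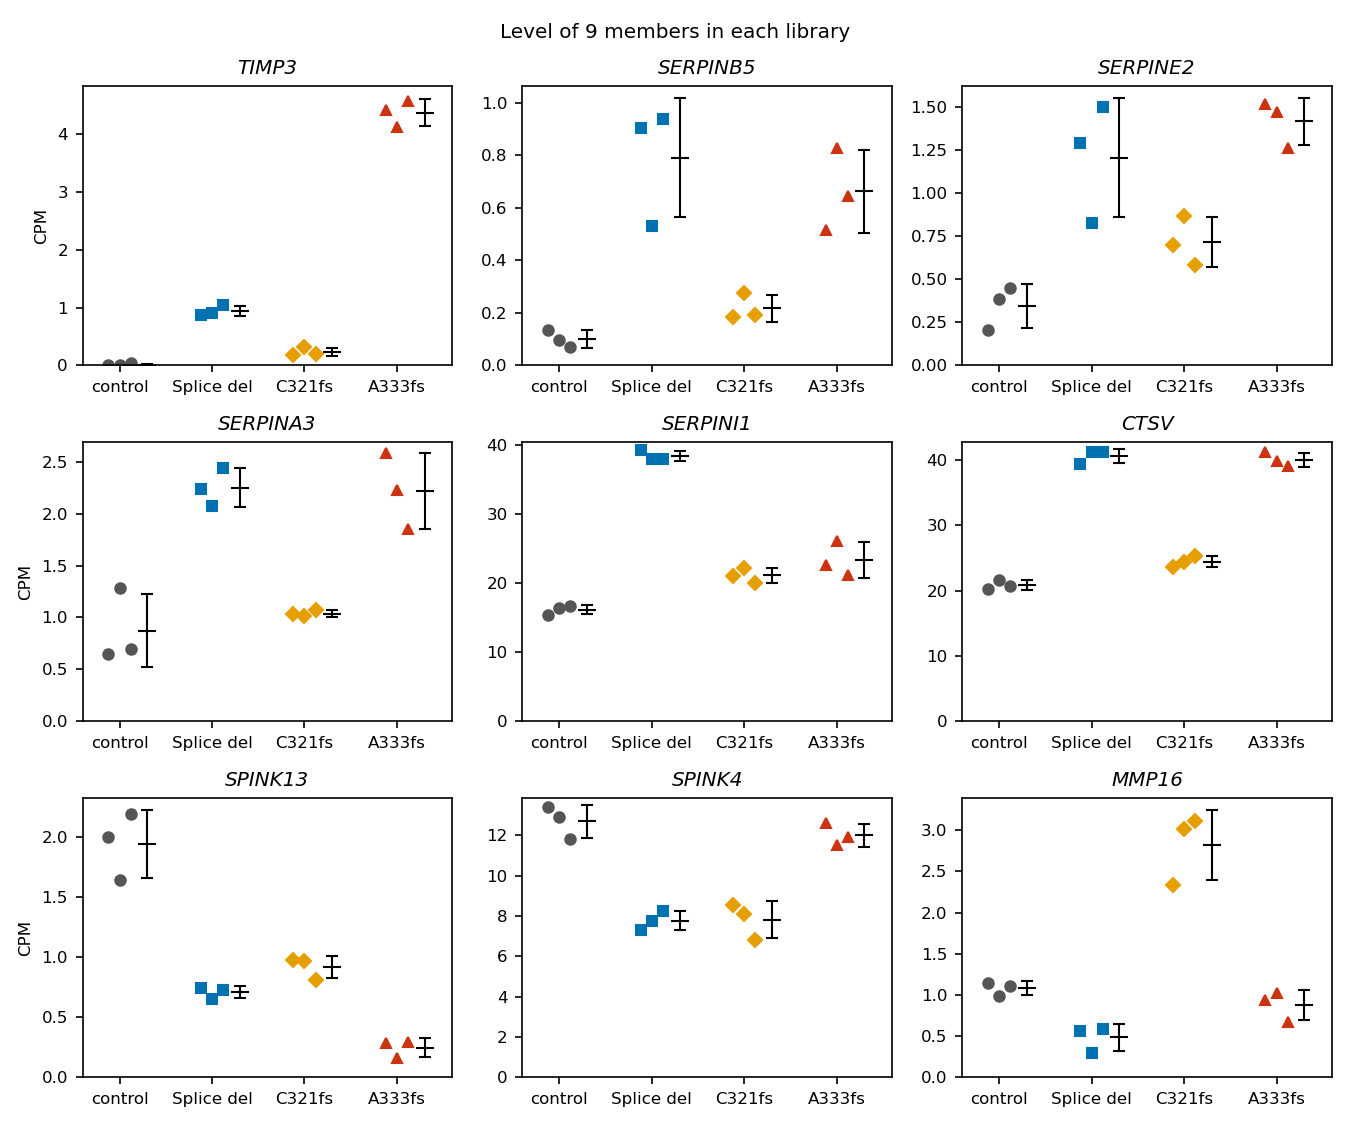
Level in CPM (vertical axis, from 0) of 9 genes in each of the 3 libraries of the 4 lines, with mean and SD in black. TIMP3 rises in steps to A333fs, SERPINB5, SERPINE2, SERPINA3 and CTSV are high in Splice del and A333fs, SERPINI1 is highest in Splice del, SPINK13 is lowest in A333fs, SPINK4 is low in Splice del and C321fs, and MMP16 is highest in C321fs.

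Among the 16 tested serpins 7 rose in Splice del, 4 in A333fs and 2 in C321fs, where 6.21%, 5.46% and 4.63% of all tested genes were called higher. Their median log2 fold change was 0.44 in A333fs, 0.53 in Splice del and 0.23 in C321fs. SERPINB5, known as maspin and typical of myoepithelial cells, rose most. Its libraries held 4, 3 and 2 counts in the control (0.136, 0.0962 and 0.0694 CPM), against 0.903, 0.532 and 0.940 CPM in Splice del, 0.183, 0.277 and 0.194 in C321fs, with 0.516, 0.830 and 0.646 in A333fs. Splice del and A333fs overlapped with each other and lay above C321fs, which lay above the control. The log2 fold change was 2.92 ± 0.41 SE in Splice del (adjusted p = 2.5e-05), 2.68 ± 0.42 in A333fs (adjusted p = 6.3e-05) and 1.07 ± 0.54 in C321fs, which was not called (adjusted p = 0.11). Splice del exceeded C321fs by 1.85 ± 0.34 (adjusted p = 0.0016) and A333fs exceeded C321fs by 1.6 ± 0.35 (adjusted p = 0.0034). The first of these was lost without Splice del replicate 1 (adjusted p = 0.012), and the second without C321fs replicate 1 or 3 or A333fs replicate 2 or 3 (adjusted p of 0.011 to 0.015). The 5 markers of basal or myoepithelial cells summed to 16.9 to 18.8 CPM in the control, 17.1 to 19.9 in Splice del, 17.5 to 22.3 in C321fs and 26.1 to 28.9 in A333fs. KRT5 had at most 3 counts in any library. KRT14 was called higher in A333fs (means of 0.0113 and 0.569 CPM) but made up little of the sum there. The part of these cells in the level of SERPINB5 was not tested.

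SERPINE2, or protease nexin 1, an inhibitor of thrombin and urokinase, was also highest in Splice del and A333fs. It had 0.204, 0.385 and 0.451 CPM in the control, 1.29, 0.827 and 1.5 in Splice del, 0.700, 0.867 and 0.583 in C321fs, with 1.52, 1.47 and 1.26 in A333fs. All mutant libraries lay above the control, and A333fs lay above C321fs while Splice del overlapped with both. The rise was 3.43-fold in Splice del (1.78 ± 0.30 SE, adjusted p = 1.6e-04) and 4.04-fold in A333fs (2.01 ± 0.30, adjusted p = 3.4e-05), and the value in C321fs was 1.03 ± 0.34 (adjusted p = 0.019). A333fs exceeded C321fs by 0.98 ± 0.25 (adjusted p = 0.0094), a call that was kept when control replicate 1 or Splice del replicate 2 or 3 was left out and lost without any of the other 9 libraries, with adjusted p up to 0.036, and also lost in the fit of those 2 lines alone (0.011) and with DESeq2 (0.012). SERPINA3, alpha-1-antichymotrypsin, an acute-phase inhibitor of neutrophil cathepsin G, had 0.645, 1.28 and 0.694 CPM in the control and 1.03, 1.01 and 1.07 in C321fs, which overlapped. Splice del had 2.24, 2.07 and 2.44 CPM and A333fs 2.58, 2.23 and 1.85, all above the other 2 lines. It rose 2.54-fold in Splice del (1.34 ± 0.22, adjusted p = 1.1e-04) and 2.51-fold in A333fs (1.33 ± 0.22, adjusted p = 1.1e-04). Both also exceeded C321fs, by 1.11 ± 0.21 (adjusted p = 0.0022) and 1.09 ± 0.21 (adjusted p = 0.0013), although the former was lost without Splice del replicate 1 or 3 or C321fs replicate 2 (adjusted p of 0.01 to 0.013). Splice del and A333fs differed by -0.25 ± 0.27 for SERPINB5, 0.24 ± 0.23 for SERPINE2 and -0.02 ± 0.18 for SERPINA3 (A333fs minus Splice del), none of them called.

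SERPINI1, or neuroserpin, an inhibitor of tissue plasminogen activator on chromosome 3 (167735644 to 167825569), was the abundant serpin that moved most. Its libraries had 15.4, 16.5 and 16.7 CPM in the control, 39.3, 38.1 and 38.0 in Splice del, 21.1, 22.3 and 20.1 in C321fs, with 22.7, 26.2 and 21.2 in A333fs. Splice del lay above all other libraries and the control below them, with C321fs and A333fs overlapping between. It rose 2.37-fold in Splice del (1.25 ± 0.08 SE, adjusted p = 7.6e-09), and Splice del exceeded C321fs by 0.86 ± 0.07 (adjusted p = 8.3e-07) and also exceeded A333fs (A333fs minus Splice del -0.72 ± 0.07, adjusted p = 7.1e-06). All 3 calls held without any single library. In C321fs and A333fs the differences from control were 0.38 ± 0.08 and 0.53 ± 0.08, under the fold change limit. The value in A333fs was 0.64 and called under upper-quartile scaling. After removal of the GC and length trend the values against control were 0.96 in Splice del, still called, 0.08 in C321fs and 0.16 in A333fs. Smaller or less stable rises were those of SERPING1, the C1 inhibitor of complement, in Splice del (1.11 ± 0.30, adjusted p = 0.005) and C321fs (1.04 ± 0.30, adjusted p = 0.0096), and of SERPINA10, the protein Z-dependent inhibitor of factor Xa, in Splice del (0.78 ± 0.18, adjusted p = 0.002) and A333fs (0.64 ± 0.19, adjusted p = 0.0082). The call of SERPING1 in Splice del was lost without control replicate 2 or 3 or Splice del replicate 1 (adjusted p up to 0.033), and that in C321fs was kept only without control replicate 1, C321fs replicate 1 or A333fs replicate 2 or 3 (adjusted p otherwise up to 0.05) and lost with DESeq2 (0.013). For SERPINA10 the Splice del and control libraries overlapped, with 3.59 CPM in Splice del replicate 3 and 3.65 in control replicate 3. The call of SERPINA10 in Splice del was lost without control replicate 1 or 2 or Splice del replicate 1 or 2 (up to 0.017), and that in A333fs without these controls, Splice del replicate 2, C321fs replicate 2 or any A333fs library (up to 0.051), as well as after removal of the GC and length trend (0.55, adjusted p = 0.017). SERPINB9P1, a pseudogene whose reads cannot be fully told from those of related serpins, rose in Splice del (1.76 ± 0.43, adjusted p = 0.0026) and C321fs (1.70 ± 0.44, adjusted p = 0.0045), lost in Splice del without control replicate 3 or Splice del replicate 2 (up to 0.014) and in C321fs without any control library or C321fs replicate 2 or 3 (up to 0.026) or with DESeq2 (0.013).

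The serpins with the highest levels differed little between lines. SERPINA6 had means of 2688.4 ± 207.0 CPM in the control, 2466.1 ± 117.4 in A333fs, 2647.1 ± 99.2 in Splice del and 2272.1 ± 78.8 in C321fs (SD, n = 3). Its largest difference from control was -0.24 ± 0.06 SE, in C321fs, whose libraries all lay below the control. SERPINH1 ranged from 206.4 CPM in C321fs to 244.5 in the control, and SERPINB6, an intracellular inhibitor of leukocyte and granule proteases, from 82.5 CPM in A333fs to 98.3 in the control. Neither was called in any comparison.

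Of the 4 tested Kazal-type inhibitors 3 fell in Splice del, 2 in A333fs and 2 in C321fs, where 4.53%, 6.81% and 2.26% of all tested genes were called lower. SPINK13 was the one that fell in every line. SPINK13, on chromosome 5 (148268860 to 148286210), had 2.00, 1.64 and 2.19 CPM in the control, 0.748, 0.650 and 0.731 in Splice del, 0.974, 0.971 and 0.810 in C321fs, with 0.290, 0.160 and 0.294 in A333fs. The 4 lines did not overlap, in the reverse of the order of TIMP3, although Splice del and C321fs were not called apart (-0.37, adjusted p = 0.32). It fell 2.72-fold in Splice del (-1.44 ± 0.20 SE, adjusted p = 2.1e-05), 2.10-fold in C321fs (-1.07 ± 0.19, adjusted p = 3.1e-04) and 7.68-fold in A333fs (-2.94 ± 0.24, adjusted p = 1.7e-07). A333fs was also below C321fs (-1.87 ± 0.28, adjusted p = 1.3e-04) and below Splice del (-1.5 ± 0.29, adjusted p = 0.0018), the latter lost without A333fs replicate 2 (-1.24, adjusted p = 0.012). Its exons overlap those of the non-coding LOC102546294, and without strand the 2 cannot be separated where they overlap.

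SPINK4, an inhibitor best known from intestinal goblet cells, on chromosome 9 (33240198 to 33248567), split the mutant lines differently. It had 13.4, 12.9 and 11.8 CPM in the control and 12.6, 11.5 and 11.9 in A333fs, which overlapped. Splice del had 7.30, 7.77 and 8.25 CPM and C321fs 8.55, 8.12 and 6.80, all below the other 2 lines. It fell 1.64-fold in Splice del (-0.71 ± 0.09 SE, adjusted p = 1.4e-05) and 1.62-fold in C321fs (-0.70 ± 0.09, adjusted p = 3.2e-05), with -0.08 ± 0.09 in A333fs. A333fs exceeded C321fs by 0.62 ± 0.09 (adjusted p = 1.4e-04) and Splice del by 0.63 ± 0.09 (adjusted p = 2.1e-04). The difference from C321fs fell under the fold change limit without C321fs replicate 3 (0.53) or A333fs replicate 1 (0.58), and that from Splice del with the GC and length trend removed (0.53, adjusted p = 3.4e-05). SPINK5, or LEKTI, the inhibitor of skin kallikreins, had means of 2.18 CPM in the control, 1.18 in A333fs, 1.13 in Splice del and 1.75 in C321fs. It fell in Splice del (-0.92 ± 0.24, adjusted p = 0.0037) and A333fs (-0.88 ± 0.24, adjusted p = 0.0045), calls that were lost without any 1 control library, without Splice del replicate 3 (adjusted p up to 0.015) and without A333fs replicate 1 or 3 (up to 0.024). SPINK8 was not called, at -0.10 ± 0.36, -1.25 ± 0.43 and -0.85 ± 0.40 in Splice del, C321fs and A333fs. With the GC and length trend removed it was called lower in C321fs (-1.56, adjusted p = 0.0092).

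Of the 8 tested MMPs, MMP16, MMP17 and MMP15 were called against control. By line, 1 fell in Splice del, 2 fell in A333fs and 1 rose in C321fs. Of all tested genes 4.53%, 6.81% and 4.63% were called in these directions. MMP16, or MT3-MMP, a membrane-anchored protease on chromosome 8 (88037232 to 88327488), had 1.15, 0.994 and 1.11 CPM in the control, 0.568, 0.296 and 0.592 in Splice del, 2.34, 3.02 and 3.11 in C321fs, with 0.936, 1.02 and 0.675 in A333fs. C321fs lay above and Splice del below all other libraries, and A333fs overlapped with the control. It rose 2.59-fold in C321fs (1.37 ± 0.20 SE, adjusted p = 6.9e-05) and fell 2.23-fold in Splice del (-1.16 ± 0.27, adjusted p = 0.0019), so that Splice del was 5.78-fold below C321fs (-2.53 ± 0.23, adjusted p = 1.3e-06) and A333fs 3.22-fold below it (-1.69 ± 0.21, adjusted p = 1.8e-05). The fall in Splice del was lost without Splice del replicate 2 (-0.90, adjusted p = 0.012). MMP16 was the only one of the 53 genes called in opposite directions in a pair of mutant lines.

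MMP17 (MT4-MMP, chromosome 12, 131828396 to 131851771) and MMP15 (MT2-MMP, chromosome 16, 58025378 to 58046900) were lower in A333fs. MMP17 had 34.3, 41.0 and 40.1 CPM in the control, 35.7, 32.0 and 37 in Splice del, 42.3, 38.4 and 37.3 in C321fs, with 24.4, 23.1 and 21.3 in A333fs. MMP15 had 18.5, 24.0 and 19.6 CPM in the control, 17.1, 18 and 17.8 in Splice del, 22.8, 19.4 and 20.5 in C321fs, with 13.1, 11.9 and 13.6 in A333fs. For both genes A333fs lay below the libraries of all other lines. Against control the difference was -0.75 ± 0.08 SE for MMP17 (adjusted p = 2.6e-06) and -0.69 ± 0.10 for MMP15 (adjusted p = 2e-05), and against C321fs -0.78 ± 0.08 (adjusted p = 3.8e-06) and -0.70 ± 0.10 (adjusted p = 5.4e-05). MMP17 was also below Splice del (-0.61 ± 0.08, adjusted p = 1.2e-04). Their exons are rich in GC, at 68.8% and 65.9%. Across all tested genes the log2 fold change in A333fs fell with GC content (Spearman's rho -0.67, against -0.51 in Splice del and -0.55 in C321fs), and over the 53 genes rho was -0.36, -0.20 and -0.19. After removal of the GC and length trend the differences from control were -0.27 (adjusted p = 6.1e-04) for MMP17 and -0.23 (adjusted p = 0.015) for MMP15, neither past the fold change limit, and those from C321fs were -0.46 and -0.44. The call of MMP15 against control also ended without control replicate 2 (-0.57) and under upper-quartile scaling (-0.57), and that of MMP17 against Splice del without Splice del replicate 3, A333fs replicate 2 or A333fs replicate 3 (-0.57, -0.58 and -0.56). What part base composition has in these differences was not tested.

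**Figure D4:**
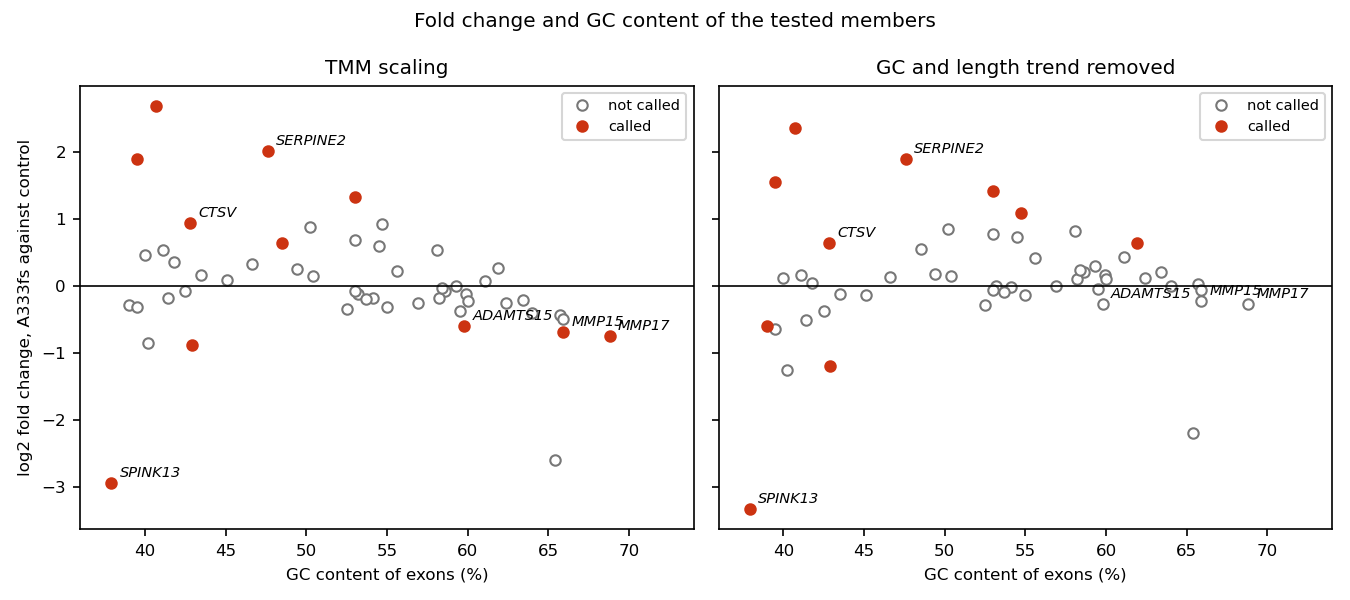
Log2 fold change in A333fs against control (vertical axis) by GC content of the exons in percent (horizontal axis) for the tested genes other than TIMP3, with TMM scaling on the left and the GC and length trend removed on the right. Filled points were called; MMP17, MMP15 and ADAMTS15, at 59.8% to 68.8% GC, are called on the left and not on the right, as is SERPINA10 (unlabelled, 48.5% GC), while SPINK13, SERPINE2 and CTSV are called on both.

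Of the other MMPs, MMP25, a membrane-anchored leukocyte protease whose exons overlap those of MMP25-AS1, was lower in A333fs than in Splice del (means of 1.84 and 3.80 CPM, -1.05 ± 0.19 SE, adjusted p = 0.0012) and was not called against control, except in Splice del under upper-quartile scaling (0.64) and after removal of the GC and length trend (0.74). MMP11, or stromelysin 3, had means of 6.45 to 8.94 CPM over the lines and MMP9, the gelatinase B, of 2.22 to 3.30, and neither was called in any comparison, although MMP11 passed in Splice del (0.63) and A333fs (0.64) once that trend was removed.

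The ADAMTS proteases cleave proteoglycans and other matrix proteins, and 9 of 19 were tested. ADAMTS15, a proteoglycan-degrading enzyme on chromosome 11 (130448974 to 130476644), had 5.22, 5.23 and 4.69 CPM in the control, 2.73, 2.84 and 2.65 in Splice del, 4.44, 4.09 and 5.12 in C321fs, with 3.07, 3.13 and 3.79 in A333fs. Splice del lay below and A333fs between the remaining lines without overlap, while C321fs overlapped with the control. It fell 1.84-fold in Splice del (-0.88 ± 0.12 SE, adjusted p = 2.5e-05) and was also lower there than in C321fs (-0.73 ± 0.12, adjusted p = 7.6e-04). In A333fs it fell 1.51-fold (-0.60 ± 0.12, adjusted p = 4.9e-04), just past the limit: the value was -0.27 (adjusted p = 0.077) with the GC and length trend removed, and the call also ended under upper-quartile scaling (-0.49), without control replicate 1 or 2 and without A333fs replicate 1 or 2. ADAMTS20, known from pigment cell development, had 1.56, 1.6 and 1.84 CPM in the control, 3.64, 2.42 and 2.61 in Splice del, 2.77, 3.64 and 3.30 in C321fs, with 1.74, 2.01 and 1.82 in A333fs. Splice del and C321fs lay above both other lines. It rose 1.94-fold in C321fs (0.95 ± 0.18, adjusted p = 4.3e-04) and 1.75-fold in Splice del (0.81 ± 0.18, adjusted p = 0.0012), and A333fs was below C321fs (-0.80 ± 0.17, adjusted p = 0.0026). The rise in Splice del was 0.59 (adjusted p = 0.011) without Splice del replicate 1 and 0.56 (adjusted p = 0.0086) with the trend removed, and the last difference was lost without C321fs replicate 2 or A333fs replicate 1 or 3 (adjusted p of 0.012 to 0.015).

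ADAMTS10, an enzyme of fibrillin microfibrils, had 18, 12 and 13 counts in C321fs and 0, 1 and 1 in A333fs, a ratio of 22.4 (95% counting interval 5.83 to 190.8). It passed the filter on low counts only through C321fs, the line where it was high, so the ratio is given as a description. It had 5, 4 and 4 counts in the control and 13, 0 and 4 in Splice del, and no difference from control was called. The most abundant members, ADAMTS7 at means of 10.1 to 14.8 CPM and ADAMTS13, the von Willebrand factor protease, at 6.70 to 8.45 CPM, were not called in any comparison.

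Cathepsins, mostly cysteine proteases of the lysosome, were expressed most and 12 of 15 were tested, of which 3 were called. Against control 2 rose in Splice del, 2 rose in A333fs and 1 fell in C321fs. Of all tested genes 6.21%, 5.46% and 2.26% were called in these directions. CTSD, a lysosomal protease known as an estrogen target in breast cancer cells, on chromosome 11 (1752752 to 1763992), had 4662.6, 5805.0 and 4766.2 CPM in the control, 3664.1, 3671.0 and 4089.0 in Splice del, 3037.4, 2692.9 and 2830.3 in C321fs, with 3839.4, 3681.5 and 4022.0 in A333fs. The control lay above and C321fs below all other libraries, and Splice del and A333fs overlapped. It fell 1.78-fold in C321fs (-0.83 ± 0.08 SE, adjusted p = 2.7e-06), while -0.42 ± 0.08 in Splice del and -0.40 ± 0.08 in A333fs were under the limit. The value in A333fs was -0.00 once the GC and length trend was removed and that in C321fs -0.67, still called. The summed level of all 122 genes, to which CTSD contributed most, was 9426.0 ± 884.6 CPM in the control, 7815.9 ± 323.0 in A333fs, 8136.1 ± 399.2 in Splice del and 6647.8 ± 288.9 in C321fs (SD, n = 3).

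CTSV, or cathepsin L2, is a cysteine protease with a narrow tissue range, on chromosome 9 (97029677 to 97039643). Among the 53 genes its called rises against control had the smallest SE. It had 20.2, 21.7 and 20.8 CPM in the control, 39.4, 41.2 and 41.3 in Splice del, 23.7, 24.4 and 25.3 in C321fs, with 41.2, 39.9 and 39.1 in A333fs. Splice del and A333fs overlapped far above C321fs, which lay just above the control. It rose 1.94-fold in Splice del (0.96 ± 0.06 SE, adjusted p = 5.9e-09) and 1.92-fold in A333fs (0.94 ± 0.06, adjusted p = 6.1e-09), with 0.23 ± 0.06 in C321fs. Both exceeded C321fs, by 0.73 ± 0.06 (adjusted p = 2e-07) and 0.71 ± 0.06 (adjusted p = 1.6e-07), and A333fs minus Splice del was -0.02 ± 0.06. All 4 calls held in every fit that left out 1 library, and after removal of the trend with GC and length. The sizes depended on that trend. Without it the differences from control were 0.69 in Splice del, 0.64 in A333fs and 0.01 in C321fs (adjusted p = 0.94). CTSS, a cysteine protease of antigen-presenting cells, had 0.204, 0.224 and 0.104 CPM in the control, 0.697, 0.798 and 0.488 in Splice del, 0.244, 0.312 and 0.356 in C321fs, with 0.452, 0.447 and 1.09 in A333fs. Each mutant line lay above the control, and Splice del and A333fs lay above C321fs.

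CTSS rose in Splice del (1.88 ± 0.45 SE, adjusted p = 0.0022) and A333fs (1.89 ± 0.45, adjusted p = 0.002), and neither differed from C321fs by the call (adjusted p = 0.075 and 0.043). Both calls were lost without control replicate 3 (adjusted p = 0.014 and 0.012), that in Splice del without Splice del replicate 2 (0.011) and that in A333fs without A333fs replicate 3 (0.016). The 4 leukocyte markers summed to 0.679 to 0.898 CPM in the control libraries, 2.28 to 2.79 in Splice del, 0.832 to 1.07 in C321fs and 1.23 to 1.68 in A333fs. PTPRC was at 0 and CD3E had at most 2 counts, and most of the sum was CD14, which was called higher in Splice del (means of 0.682 and 2.50 CPM) and A333fs (1.30 CPM). Its part in the rise of CTSS was not tested. CTSZ, CTSA and the cysteine protease CTSB, the most abundant after CTSD, were not called: their differences from control lay between -0.35 and 0.18. The exons of CTSA overlap those of NEURL2 and PLTP. The kallikrein KLK10 had means of 0.846 CPM in the control, 1.6 in A333fs, 1.51 in Splice del and 1.55 in C321fs. Every mutant library lay above the control, and the differences were 0.85 ± 0.29 SE in Splice del (adjusted p = 0.021), 0.88 ± 0.29 in C321fs (adjusted p = 0.02) and 0.92 ± 0.29 in A333fs (adjusted p = 0.012), not called. All 3 were called under upper-quartile scaling (0.94, 0.96 and 1.03 in Splice del, C321fs and A333fs) and after removal of the GC and length trend (0.92, 0.96 and 1.08).

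Between mutant lines, 7 of the 53 genes were called between Splice del and C321fs, 12 between A333fs and C321fs and 7 between A333fs and Splice del. Splice del was higher than C321fs for 5 genes and lower for 2, where 1.76% and 0.879% of all tested genes were called. The 5 were TIMP3, SERPINB5, SERPINA3, SERPINI1 and CTSV, and the 2 were MMP16 and ADAMTS15. A333fs was higher than C321fs for 6 genes (2.47% of all genes) and lower for 6 (3.08%), or 7 and 4 after removal of the GC and length trend. The 6 higher were TIMP3, SERPINB5, SERPINE2, SERPINA3, SPINK4 and CTSV. The 6 lower were SPINK13, MMP15, MMP16, MMP17, ADAMTS20 and ADAMTS10, the last of which was tested only because of its level in C321fs. After removal of the trend MMP15 and MMP17 were no longer called and CTSD was called higher (0.67). A333fs was higher than Splice del for 2 genes, TIMP3 and SPINK4 (1.03% of all genes), and lower for 5 (1.97%), which were TIMP1, SERPINI1, SPINK13, MMP17 and MMP25, or 1 and 5 with the trend removed.

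Beyond these families, 118 further genes of the same pathways were looked at, of which 61 were tested: other serine proteases, ADAMs and other metalloproteases, other cysteine and aspartic proteases, other inhibitors, and receptors and activators. Of the 61, 8 rose and 1 fell in Splice del, 4 rose and 2 fell in C321fs, and 8 rose and 6 fell in A333fs. As shares of the 61 these were 13.1% and 1.64% for Splice del (all genes 6.21% and 4.53%), 6.56% and 3.28% for C321fs (all genes 4.63% and 2.26%) and 13.1% and 9.84% for A333fs (all genes 5.46% and 6.81%). Of the 6 that fell in A333fs, ADAM8, ADAM15, ADAMTSL4, ADAMTSL5 and CST3 were no longer called after removal of the GC and length trend, and F12 was. Among the 20 serine proteases the secreted PRSS23 rose in all 3 lines, from a mean of 14.9 CPM in the control to 64.9 in A333fs, 78.8 in Splice del and 50.7 in C321fs (log2 fold changes of 2.12 ± 0.06 SE, 2.40 ± 0.06 and 1.76 ± 0.06), although its exons overlap those of FZD4. The membrane-anchored TMPRSS3 was high in Splice del and A333fs, with 3.93 CPM in the control, 21.3 in A333fs, 24.0 in Splice del and 4.04 in C321fs (2.44 ± 0.13, 2.61 ± 0.13 and 0.03 ± 0.15). F12, coagulation factor XII, fell in A333fs (means of 31.0 and 12.5 CPM, -1.31 ± 0.12, adjusted p = 5.4e-07). The endocytic receptor LRP2, which takes up serpin and protease complexes, rose in all 3 lines (2.48 ± 0.29, 1.26 ± 0.34 and 2.66 ± 0.29 in Splice del, C321fs and A333fs), as did TINAGL1, a cathepsin-like matrix protein without protease activity (1.51 ± 0.11, 0.64 ± 0.11 and 1.09 ± 0.11 in the same order). ADAMTSL5, an ADAMTS-like protein without a protease domain, fell in all 3 (-0.80 ± 0.08, -0.61 ± 0.08 and -0.88 ± 0.08 in that order). Of 10 tested inhibitors outside the families, CST3, the cystatin C that blocks cysteine cathepsins, fell in A333fs (-0.64 ± 0.08, adjusted p = 9.3e-06). With the GC and length trend removed CST3 in A333fs was at -0.50 and ADAMTSL5 at -0.44 in C321fs and -0.49 in A333fs, under the fold change limit.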

How the data were processed

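For RNA-seq the authors used Trimmomatic for trimming, hg38 for alignment and featureCounts 1.6.4 for counting read pairs per gene, without using strand; the deposited values are raw counts, not normalized and not pooled over replicates. The submitters' processing notes name HISAT2 and the file header paths name STAR, so the aligner was not settled. The ChIP-seq of the same lines was not used here. From the counts, genes were kept with filterByExpr by line (14789 of 26485), scaled by TMM and fitted with edgeR 4.0.16 (quasi-likelihood test, 1 coefficient per line, all 12 libraries) in R 4.3.3. Benjamini-Hochberg adjustment ran over all tested genes, and a call needed a fold change over 1.5 and p below 0.01 once adjusted, limits taken from the study. A line with at most 3 counts in every library was taken as at the floor, and ratios against it came from summed counts with an exact Clopper-Pearson interval. Level per length is TMM-scaled CPM per kb of merged exons. GC content came from the hg38 exons of the count file.

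The gene families and lists were chosen with earlier results of these data known. All genes called in any comparison could be named; described in full were those called in the most comparisons or with the largest called change in a family, the 3 highest per length in a family, and every TIMP, and of other pathway genes at most 3 per list and direction. Alternatives were 2 other scalings, 2 other filters, DESeq2 1.42.0, other limits, the 2 lines alone, a replicate block, removal of the GC and length trend by loess (span 0.3), and each library left out. The fit was tested on simulated data.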

Additional observations from a re-analysis of the deposited data

Results flagged for a closer look

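The following 26 differences between mutant lines, in 16 genes, were flagged because the effects of 2 mutants against the shared control differed by the test of that difference itself, edgeR's quasi-likelihood contrast of the 2 lines. Values are log2 differences. In Splice del minus C321fs they were 2.03 for TIMP3, 1.85 for SERPINB5, 1.11 for SERPINA3, 0.86 for SERPINI1, 0.73 for CTSV, -0.73 for ADAMTS15 and -2.53 for MMP16. In A333fs minus C321fs they were 4.24 for TIMP3, 1.6 for SERPINB5, 1.09 for SERPINA3, 0.98 for SERPINE2, 0.71 for CTSV, 0.62 for SPINK4, -0.70 for MMP15, -0.78 for MMP17, -0.80 for ADAMTS20, -1.69 for MMP16, -1.87 for SPINK13 and -4.24 for ADAMTS10, whose A333fs libraries held at most 1 count and which passed the filter on low counts only through C321fs. In A333fs minus Splice del they were 2.21 for TIMP3, 0.63 for SPINK4, -0.61 for MMP17, -0.65 for TIMP1, -0.72 for SERPINI1, -1.05 for MMP25 and -1.5 for SPINK13. With 3 libraries in a line no test for a single aberrant library was made.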

How the results depend on the processing

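Of the 63 calls of single genes over the 6 comparisons, 54 were kept with the GC and length trend removed, 40 were kept in all 12 fits that left out 1 library, and none of the 1257 recomputed values changed sign. The count lower in A333fs was 3 under upper-quartile scaling and 3 with the trend removed, and ranged from 2 to 5 over the fits without 1 library. The count higher in C321fs was 3 with DESeq2 and 9 at an adjusted p below 0.05, and ranged from 3 to 5 over the fits without 1 library. Without a minimum fold change, 8 genes were lower in Splice del, 8 higher and 8 lower in C321fs, 13 lower in A333fs, 11 differed between Splice del and C321fs and 13 between A333fs and Splice del. Shares over all genes were not counted under these other limits and scalings. Upper-quartile scaling moved the median of all genes to 0.122, 0.106 and 0.12 in Splice del, C321fs and A333fs. With a replicate block the count higher in C321fs was 4, that between A333fs and C321fs 11 and that among the 4 lines 32, and the other counts did not change. The block ended the calls of SERPINE2 in A333fs against C321fs (adjusted p = 0.016), SERPING1 in C321fs (0.013) and SERPINA10 in A333fs (0.012); replicate numbers did not pair the libraries (mean residual correlation -0.0092, from -0.12 to 0.17 over 18 pairs). Depth limits genes under 1 CPM, where the spread between replicates was widest.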
